A study of Mus musculus with 8 samples.

Results

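Transcripts of 9 genes of hepatic glycogen metabolism were followed in livers lacking ZFP36L1 and in control livers. The genes are Ppp1r3b, Ppp1r3c, Ppp1r3d and Ppp1r3g, which encode subunits that carry protein phosphatase 1 to glycogen, and Gys2, Gbe1, Ugp2, Pygl and Phka2, which encode enzymes of glycogen synthesis and breakdown. They were taken by symbol from a table of 25239 genes, all 9 were present, and all 9 passed the filter on low counts that left 14861 genes for testing. RNA came from adult male mouse livers in 2 groups of 4 libraries. Knockout mice carried the Zfp36l1 fl/fl alleles together with Alb-Cre, a recombinase under the promoter of albumin, a hepatocyte gene, so other liver cells should keep the gene. Control mice carried the fl/fl alleles, and Alb-Cre is not named for them, although another label field calls them WT. ZFP36L1 binds AU-rich stretches in the 3′ untranslated region (UTR) of mRNAs and promotes their decay. The labels used here name no feeding state and no hour of collection, and do not say whether each library stands for a separate mouse, so the p-values rest on the spread among libraries, which may be technical.

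The liver stores glucose as glycogen after a meal and releases it between meals. Glycogen synthase adds glucose from UDP-glucose, the branching enzyme adds branch points, and phosphorylase removes glucose units. Phosphorylation by phosphorylase kinase switches phosphorylase on, and phosphorylation of glycogen synthase switches it off. Protein phosphatase 1 (PP1) reverses both, and the PPP1R3 subunits determine that it does so on the glycogen particle.

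Binding sites of the ZFP36 family centre on the heptamer UAUUUAU, so the longest annotated 3′ UTRs of the 9 genes (GENCODE release M21, on the mm10 assembly) were searched for it on the transcribed strand. It occurred in 3 of the 9, namely Ppp1r3b, Gbe1 and Ppp1r3d, at 5 places in all. Each is printed with its neighbours as 30 bases, with the heptamer in capitals. In Ppp1r3b on chromosome 8, plus strand, the sites lie at chr8:35385875-35385904 and chr8:35387373-35387402.
Ppp1r3b site 1: ucggguguuuuUAUUUAUgguguguauuau
Ppp1r3b site 2: ucuuuguuccaUAUUUAUuuccccaaauuc
In Gbe1 on chromosome 16, plus strand, they lie at chr16:70529471-70529500 and chr16:70530192-70530221.
Gbe1 site 1: ugcugucuccuUAUUUAUagucacagauac
Gbe1 site 2: uacauaaugaaUAUUUAUcauauucuuccc
In Ppp1r3d on chromosome 2, minus strand, the site lies at chr2:178413021-178413050, and it is the only one that also holds the nonamer UUAUUUAUU.
Ppp1r3d site 1: uaaguagcuguUAUUUAUuauugugaaguu

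Long UTRs hold the heptamer more often, so each gene was set beside tested genes with a 3′ UTR of 0.8 to 1.25 times its length. The heptamer was present in 54.9% of UTRs similar to the 3276 bases of Ppp1r3b, in 41.1% of those similar to Ppp1r3d (2162 bases) and in 28.8% of those similar to Gbe1 (1231 bases). The other 6 genes had no UAUUUAU in their longest annotated 3′ UTR, among them Ppp1r3g (746 bases, 19.2% of similar UTRs) and Ppp1r3c (1684 bases, 35.1%). The short UTRs of Gys2 (234 bases), Pygl (172 bases) and Phka2 (372 bases) belong to length classes in which 5.16% to 9.14% hold the heptamer, and for Ugp2 (884 bases) the share was 21.5%. Presence of the letters does not show binding.

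Levels are library-scaled counts after TMM (CPM), given as mean ± SD with n = 4 per group. Fold changes are on the log2 scale, knockout over control, from edgeR's quasi-likelihood test with their standard error (SE), and adjusted p-values are Benjamini-Hochberg over the 14861 genes with a threshold of 0.05. The targeted transcript Zfp36l1 had 76.9, 57.9, 67.2 and 58.3 CPM in the knockout libraries and 263.4, 236.6, 323.5 and 212.1 CPM in the control libraries. The groups did not overlap, and the knockout mean was 25.1% of the control mean (log2 fold change −1.99, SE 0.14, adjusted p = 0.000309; exact two-sided permutation p = 0.0286 over 70 assignments, the smallest it can give). Total counts were 120200618 to 140582588 in knockout libraries and 104842873 to 132017092 in control libraries, and the 9 genes took 0.194% to 0.238% and 0.196% to 0.23% of them. All 6 hepatocyte markers were detected, with a summed level of 81414 to 91957 CPM in knockout and 69588 to 75171 CPM in control libraries, most of it Alb. Muscle, which uses other isoforms of these enzymes, was represented by 6 markers, of which Ckm and Pvalb were at 0 in all libraries and Acta1 had at most 2 counts. Their summed level was 0.361 to 0.57 CPM in knockout and 0.329 to 0.41 CPM in control libraries. Most of it was Mylpf, which had 38 to 69 counts in knockout and 35 to 50 counts in control libraries. In bulk liver, fewer cells of a type and less RNA per cell cannot be told apart.

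Transcripts of 3 enzymes of glycogen synthesis and of 1 targeting subunit rose in knockout livers. Of the 9 genes, 4 rose, 0 fell and 5 did not pass the test. Ppp1r3g rose most, 9.12-fold, and the enzyme genes Gbe1, Ugp2 and Gys2 rose 1.35-, 1.34- and 1.24-fold. Over all tested genes 3.51% rose and 1.88% fell. The median log2 fold change of the 9 genes was 0.31, against −0.01 for all tested genes. For 5 of the 9 genes all knockout libraries lay above all control libraries, and for 0 below, against 7.17% and 7.93% of all tested genes. DESeq2 also called 4 higher and 0 lower, against 6.53% and 4.53% of its genes with an adjusted p. At an unadjusted p under 0.05 edgeR had 5 higher and 1 lower. Such p-values were common among all tested genes. In edgeR the unadjusted p was 0.0432 at rank 2988 and 0.0599 at rank 3480 of 14861. At least 2988 and fewer than 3480 genes, both directions together, were therefore under 0.05. With the replicate number as a block, 3 rose and 0 fell, against 4.39% and 2.52% of all tested genes, and scaling by total counts alone gave 2 higher and 1 lower, against 2.64% and 9%. The number that rose was 0 without control library 1, knockout library 2 or knockout library 3, 1 without control library 2, 2 without control library 4, knockout library 1 or knockout library 4, and 3 without control library 3. Of all tested genes 521 of 14861 rose with every library kept. In the same order of left-out libraries 232 of 14985, 304 of 15043 and 169 of 14955 rose, then 304 of 15048. Next came 456 of 15029, 202 of 14961 and 445 of 14939, and last 583 of 14950. The summed level of hepatocyte markers, most of it Alb, also lay higher in all knockout than in all control libraries. Of the 6 markers 0 passed in edgeR, 3 had a log2 fold change above 0 and 3 below, with a median of −0.07. Alb and Ttr were 1.25- and 1.33-fold higher without overlap between groups, as were 7.17% of all tested genes. DESeq2 called 2 of the 6 higher, limma with quality weights 1 and the replicate block 1, and each called 0 lower. Over all genes tested in these fits, 6.53%, 5.6% and 4.39% were called higher. The part of the markers in the result was not tested.

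**Figure D1:**
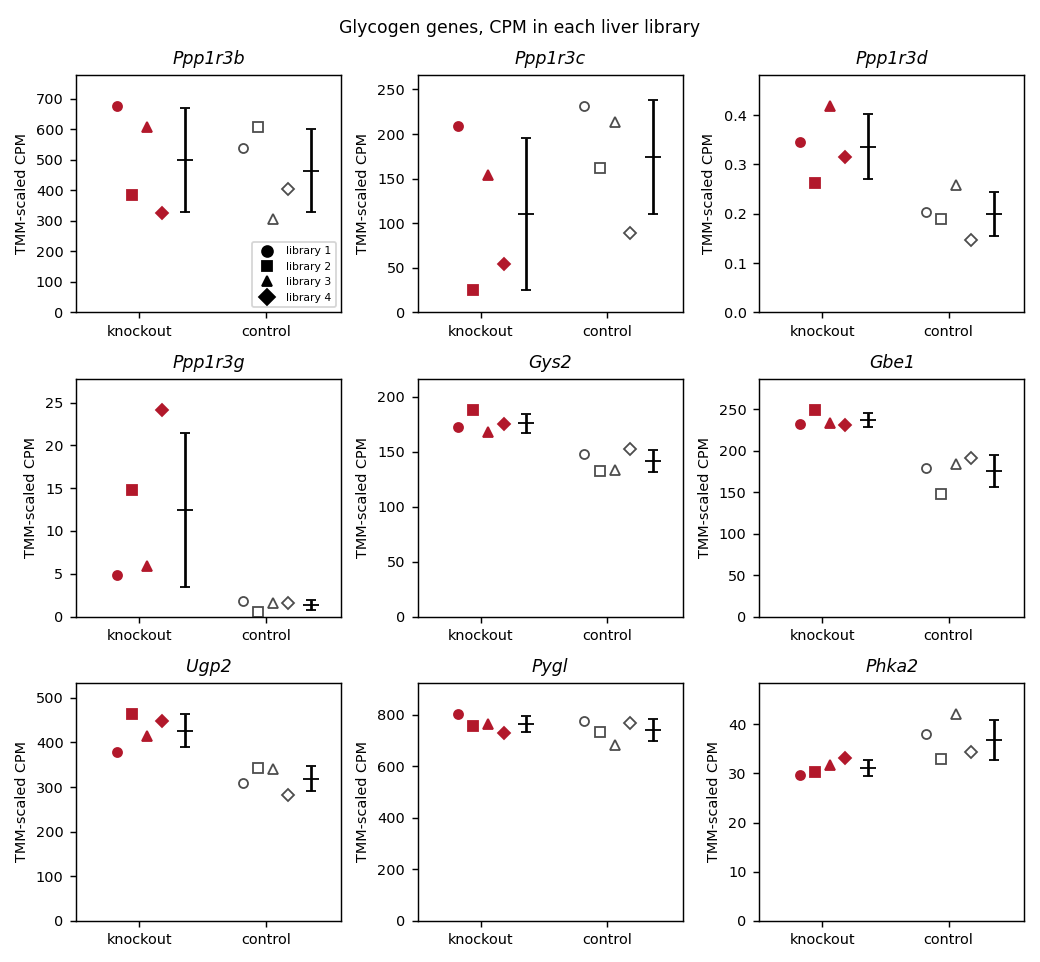
TMM-scaled CPM of the 9 glycogen genes in each of the 4 knockout (filled) and 4 control (open) liver libraries, with symbols for library numbers 1 to 4 and the mean ± SD at the right of each group. Ppp1r3g, Gys2, Gbe1, Ugp2 and Ppp1r3d show no overlap between groups, and Ppp1r3b and Ppp1r3c spread widely within both.

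Ppp1r3g encodes a PP1 targeting subunit studied in mouse liver for its part in glycogen storage after a meal (ENSMUSG00000050423.11, chromosome 13, 35958839 to 35970388, plus strand, mm10). It had 4.82, 14.8, 5.95 and 24.2 CPM in knockout libraries 1 to 4, and 1.85, 0.49, 1.55 and 1.58 CPM in control libraries 1 to 4. The antisense gene Gm30127 lies across it and is no row of the table used, so reads from either strand may be counted here. The same holds for the antisense genes Gm45469 at Ppp1r3b, Gm12043 at Ugp2 and Gm15243 at Phka2. All knockout libraries lay above all control libraries, and within the knockout group libraries 2 and 4 stood above libraries 1 and 3. The means were 12.4 ± 9.005 CPM in knockout and 1.36 ± 0.599 CPM in control livers, a log2 fold change of 3.19 (SE 0.64, adjusted p = 0.0348). The highest knockout library had 5.01 times the level of the lowest, and the coefficient of variation, 72.4% in knockout and 43.9% in control libraries, compares with medians of 8.62% and 11.4% over 11763 genes of at least 1 CPM. With the replicate block the log2 fold change was 2.99 and the adjusted p 0.114. The call was also lost without control libraries 1, 2, 3 or 4 (adjusted p = 0.0672, 0.063, 0.0555 and 0.0686), without knockout library 2 (0.0884) or 3 (0.0578), without a count filter (0.0608) and in limma with quality weights (0.0645), while the log2 fold change stayed between 2.51 and 3.46 in all 16 alternatives.

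Ppp1r3b encodes the main hepatic targeting subunit, G-L, and is itself a binding partner of active phosphorylase (ENSMUSG00000046794.9, chromosome 8, 35375739 to 35388139, plus strand). It had 678, 385, 608 and 325 CPM in knockout libraries 1 to 4, and 541, 609, 305 and 405 CPM in control libraries 1 to 4. The groups overlapped, and the highest library had 2.08 times the level of the lowest in the knockout group and 2.00 times in the control group. Knockout and control differed by a log2 fold change of 0.10 (SE 0.28, adjusted p = 0.868), with an interval of 1.96 SE from −0.46 to 0.66, and its sign turned in 4 alternatives. The order of the knockout libraries for Ppp1r3b, 1, 3, 2 and 4 from high to low, was the reverse of their order for Ppp1r3g, and the control libraries were not in reverse order.

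Ppp1r3c encodes PTG, a targeting subunit that also binds glycogen synthase and phosphorylase (ENSMUSG00000067279.3, chromosome 19, 36731731 to 36736653, minus strand). It had 209, 25.3, 154 and 53.8 CPM in knockout libraries 1 to 4, and 232, 162, 214 and 88.6 CPM in control libraries 1 to 4. Knockout libraries 2 and 4 were below every control library, and knockout libraries 1 and 3 lay within the control range. The log2 fold change of −0.66 (SE 0.65, adjusted p = 0.606) had an interval from −1.93 to 0.62. Each knockout library was below the control library of the same number, although the labels state no pairing. The replicate block gave −0.97 (SE 0.51, adjusted p = 0.337). The sign was negative in all 16 alternatives. Its coefficient of variation in knockout libraries, 77.5%, was higher than that of 99.5% of the 11763 genes.

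Ppp1r3d, which encodes the targeting subunit R6, had the lowest level of the 9 genes (ENSMUSG00000049999.4, chromosome 2, 178411206 to 178414472, minus strand). Raw counts were 44, 30, 58 and 42 in knockout libraries and 22, 24, 36 and 18 in control libraries, or 0.335 ± 0.0659 and 0.200 ± 0.0455 CPM. Every knockout library was above every control library in CPM, with a narrow gap of 0.262 CPM in knockout library 2 to 0.259 CPM in control library 3. The log2 fold change of 0.75 (SE 0.27) did not pass (adjusted p = 0.148). All 8 raw counts are even, and 67.4% to 70.8% of all values from 1 to 20 in a library are even, so the number of independent fragments may be smaller than the counts.

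Compared per length of transcript, Ppp1r3b and Ppp1r3c made up nearly all PPP1R3 message in both groups. Levels per kilobase were 110 ± 37.6 and 103 ± 30.1 CPM per kilobase for Ppp1r3b in knockout and control livers, and 41.2 ± 32.0 and 65.0 ± 24.0 for Ppp1r3c. Ppp1r3g had 5.39 ± 3.90 and 0.591 ± 0.259, Ppp1r3e 3.00 ± 0.372 and 3.08 ± 0.536, and the remaining members were below 0.3. As a share of the summed level of the 7 members Ppp1r3a to Ppp1r3g, Ppp1r3g held 0.894%, 6.15%, 1.30% and 9.94% in knockout libraries 1 to 4, and 0.381%, 0.107%, 0.441% and 0.539% in control libraries. Ppp1r3c held 33.4%, 9.07%, 29.05% and 19.1% in knockout libraries, and 41.3%, 30.5%, 52.5% and 26.1% in control libraries. Per kilobase, Ppp1r3c was 37.3, 1.47, 22.3 and 1.92 times Ppp1r3g in knockout libraries 1 to 4, and 108, 285, 119 and 48.5 times in control libraries 1 to 4. Ppp1r3a, the muscle member, had 0 to 4 counts in knockout and 2 to 8 counts in control libraries and was not tested.

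**Figure D2:**
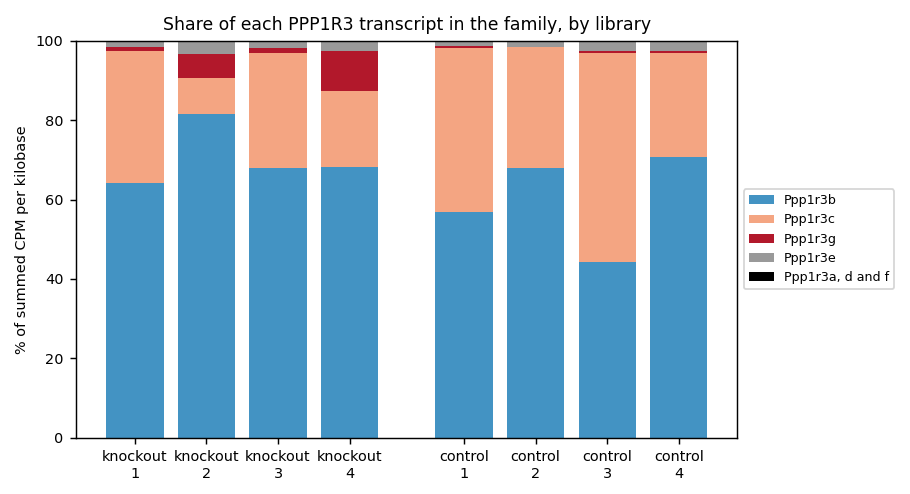
Share of each PPP1R3 transcript in the summed TMM-scaled CPM per kilobase of Ppp1r3a to Ppp1r3g, as stacked bars in percent for 4 knockout and 4 control libraries. Ppp1r3b and Ppp1r3c fill most of every bar, and Ppp1r3g is visible mainly in knockout libraries 2 and 4 with 6.15% and 9.94%. Ppp1r3a, Ppp1r3d and Ppp1r3f are too small to see.

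Libraries also differed in clock genes, whose transcripts cycle over the day in liver. Of 12 clock genes 0 passed in either direction in edgeR or limma, and 0 of the 11 with an adjusted p passed in DESeq2. At an unadjusted p under 0.05 edgeR had 0 higher and 2 lower. At least 2988 of the 14861 tested genes, both directions together, were under that p. With the replicate block 1 of the 12 fell, against 2.52% of all tested genes. It was Nr1d1, a repressor of the clock loop, with 45.0 ± 15.4 CPM in knockout and 83.04 ± 36.1 CPM in control livers (log2 fold change −0.84 in that fit, adjusted p = 0.00957, against −0.88 and 0.214 without the block). Ciart was lower in every knockout than in every control library, as were 7.93% of all tested genes (log2 fold change −1.48, SE 0.59, adjusted p = 0.182). The spread within groups was large. Arntl, which encodes the activator BMAL1, had 36.1, 19.8, 29.02 and 15.8 CPM in knockout libraries 1 to 4, and 33.2, 38.8, 40.6 and 11.3 CPM in control libraries 1 to 4. In each group the library lowest in Arntl was number 4, and in the knockout group libraries 2 and 4 were lower than libraries 1 and 3, as for Ppp1r3b and Ppp1r3c. In the control group Ppp1r3c was also lowest in library 4, but Ppp1r3b was lowest in library 3 (305 CPM), where Arntl was highest. The output gene Dbp had 6.92 CPM in knockout library 4 and 26.3 CPM in control library 4, against 0.314 to 1.39 CPM in the other knockout and 0.308 to 1.21 CPM in the other control libraries. Arntl, Dbp, Nr1d1 and Ciart were chosen after their values were seen. The part of such differences in the spread of the PPP1R3 transcripts was not tested.

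**Figure D3:**
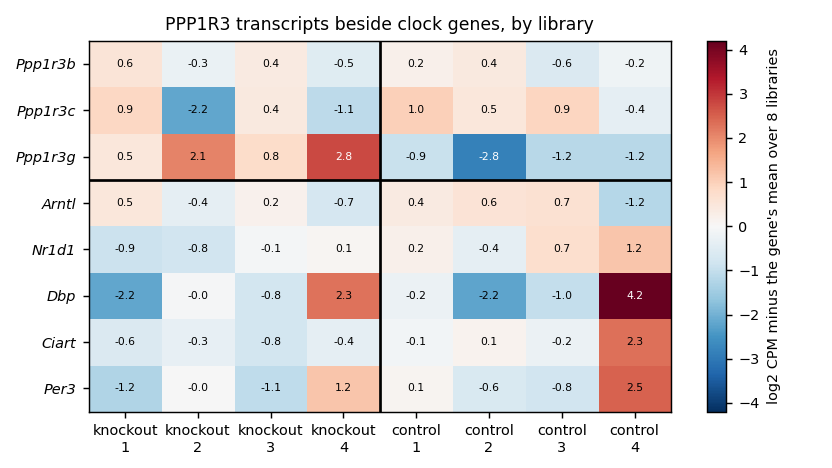
Log2 CPM of 3 PPP1R3 transcripts and the 5 clock genes named in the text minus each gene's mean over the 8 libraries, with knockout libraries at the left, control libraries at the right and the value in each cell. Ppp1r3c and Arntl are low in knockout libraries 2 and 4 and in control library 4, and Ppp1r3g is above its mean in all 4 knockout libraries.

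Promoters of 250 bases before to 50 after the start site were at hand from RefSeq (GRCm38.p6) for 7 of the 9 genes, and 6 motifs, chosen after the values were seen, were searched on both strands. The windows of Ppp1r3g (chr13:35967656-35967955) and Pygl (chr12:70227634-70227933) lie inside the loci given for these genes. Their motifs therefore belong to start sites other than the outermost one of each locus. The E-box CACGTG, the sequence that BMAL1 and its partners bind, occurred in Ppp1r3c and Ppp1r3d and in 7.15% of all 32851 promoters. It is shown for these genes in 30 bases on the gene's strand with the E-box in capitals, at chr19:36736691-36736720 (minus strand, 104 bases upstream of the start site) and chr2:178414672-178414701 (minus strand, 226 bases upstream).
Ppp1r3c E-box: gagggaccggttCACGTGatctggctttga
Ppp1r3d E-box: gcagcctgaacaCACGTGacgaggttcccg
TGACG, the core of the cAMP response element, occurred in Ppp1r3d, Ppp1r3g and Pygl and in 20.8% of all promoters, and 1 of its 2 matches in Ppp1r3d overlaps the E-box shown. AGGTCA, which nuclear receptors bind, occurred in Pygl and in 16.3% of all promoters. The full element TGACGTCA (1.79% of promoters), GTAAACA (3.65%) and TTATGCAA (0.743%) had no match in these windows.

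Ugp2, Gys2 and Gbe1, which encode enzymes that build glycogen, rose modestly. Ugp2 makes UDP-glucose, the donor for glycogen synthase (ENSMUSG00000001891.16, chromosome 11, 21321138 to 21371201, minus strand). It had 380, 464, 415 and 448 CPM in knockout libraries 1 to 4, and 309, 342, 340 and 283 CPM in control libraries 1 to 4. The groups did not overlap, and the means of 427 ± 37.5 CPM in knockout and 319 ± 28.3 CPM in control livers gave a log2 fold change of 0.42 (SE 0.09, adjusted p = 0.0299). The call was lost without control libraries 1, 2 or 4 (adjusted p = 0.0861, 0.051 and 0.0571), without knockout libraries 2, 3 or 4 (0.0774, 0.0759 and 0.0643) and under total counts alone (0.069). The microRNA gene Mir1933, within Ugp2, is counted in a row of its own.

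Gys2 encodes liver glycogen synthase, the enzyme that lengthens the chains (ENSMUSG00000030244.7, chromosome 6, 142422613 to 142473109, minus strand). It had 173, 188, 168 and 175 CPM in knockout libraries 1 to 4, and 148, 132, 133 and 152 CPM in control libraries 1 to 4. Both groups were tight and separate, with 176 ± 8.67 CPM in knockout and 141.4 ± 9.93 CPM in control livers (log2 fold change 0.31, SE 0.07, adjusted p = 0.0357). The call was lost without control libraries 1 or 2 (adjusted p = 0.065 and 0.0825), without any 1 of knockout libraries 1 to 4 (0.0886, 0.0954, 0.0774 and 0.0649) and under total counts alone (0.0781). Gys1, which encodes the muscle isoform of the same enzyme, had 2.37 ± 0.373 CPM in knockout and 3.39 ± 0.441 CPM in control livers (−0.52, SE 0.16, adjusted p = 0.0876). Per kilobase, Gys2 was 82.5 to 114 times Gys1 in knockout libraries and 48.1 to 75.7 times in control libraries.

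Gbe1 encodes the branching enzyme and carries both UAUUUAU sites shown for chromosome 16 (ENSMUSG00000022707.16, 70313949 to 70569716, plus strand). It had 232, 249, 234 and 231 CPM in knockout libraries 1 to 4, and 178, 148, 183 and 191 CPM in control libraries 1 to 4. The lowest knockout library was above the highest control library, and the means were 236 ± 8.49 CPM in knockout and 175 ± 18.9 CPM in control livers. Its log2 fold change of 0.43 (SE 0.09, adjusted p = 0.0228) kept adjusted p under 0.05 in 12 of 16 alternatives, total counts alone included. It was lost without control library 1 (0.0576) and without knockout libraries 1, 2 or 3 (0.0611, 0.0586 and 0.0681).

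The genes of glycogen breakdown did not pass the test. Pygl, liver glycogen phosphorylase, was the most abundant enzyme gene of the 9 per kilobase (ENSMUSG00000021069.17, chromosome 12, 70190811 to 70231488, minus strand). It had 803, 757, 764 and 730 CPM in knockout libraries and 778, 734, 684 and 769 CPM in control libraries. The groups overlapped, and the log2 fold change of 0.04 (SE 0.07, adjusted p = 0.767) had an interval from −0.10 to 0.18. Its sign turned to −0.07 under total counts alone. F730035M05Rik lies across Pygl on the other strand and is a row of its own, with 0.525 ± 0.123 CPM in knockout and 0.208 ± 0.145 CPM in control livers. No strand setting is stated, so how reads in their overlap were assigned is not known. Phka2 encodes the liver form of the regulatory alpha subunit of phosphorylase kinase (ENSMUSG00000031295.13, chromosome X, 160502166 to 160598878, plus strand). It had 29.6, 30.2, 31.7 and 33.2 CPM in knockout libraries and 38.1, 33.0, 42.1 and 34.4 CPM in control libraries. Knockout libraries 1 to 3 were below all control libraries, and knockout library 4 lay just above the lowest control. The log2 fold change of −0.24 (SE 0.09) did not pass under TMM scaling (adjusted p = 0.14) and passed under total counts alone (−0.36, adjusted p = 0.0389).

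Ratios of 2 genes within a library do not depend on the scaling between libraries, and those of Gys2 and Gbe1 to Pygl lay higher in knockout livers. Per kilobase, Gys2 over Pygl was 0.228, 0.264, 0.233 and 0.254 in knockout libraries 1 to 4, and 0.202, 0.192, 0.207 and 0.210 in control libraries 1 to 4. Gbe1 over Pygl was 0.273 to 0.311 in knockout and 0.191 to 0.253 in control libraries. These 2 ratios did not overlap between the groups. Ugp2 over Pygl did overlap, with 0.430 to 0.559 in knockout and 0.335 to 0.453 in control libraries. Gbe1 and Gys2 kept a close proportion to each other, 1.18 to 1.24 in knockout and 0.994 to 1.22 in control libraries. Since the genes were chosen with their values known, the ratios are given without a test.

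The rest of the pathway was read from 39 other genes in 4 lists, of which 38 were tested. For 3 of the 38 all knockout libraries lay above all control libraries, and for 3 below, against 7.17% and 7.93% of all tested genes. In edgeR 0 rose and 0 fell, against 3.51% and 1.88% of all tested genes, with a median log2 fold change of −0.0018. At an unadjusted p under 0.05 it had 3 higher and 4 lower. At least 2988 of the 14861 tested genes, both directions together, were under that p. DESeq2 called 1 higher (Ppp1cb) and 3 lower (Irs1, Gcgr and Gys1), against 6.53% and 4.53% of its genes with an adjusted p. Limma with quality weights called 0 and 2 (5.6% and 4.16% of all tested genes) and the replicate block 0 and 1 (4.39% and 2.52%). Total counts alone gave 0 and 5 (2.64% and 9%). Among 5 tested genes of other PPP1R3 subunits and PP1 catalytic subunits, Ppp1cb, which encodes the beta catalytic subunit, had 164 ± 3.15 CPM in knockout and 147 ± 2.68 CPM in control livers (log2 fold change 0.15, SE 0.05, adjusted p = 0.144) without overlap. Ppp1ca and Ppp1cc, the other catalytic subunits, had −0.09 and −0.33 (adjusted p = 0.465 and 0.28), and Ppp1r3f had 0.37 (adjusted p = 0.361). Among 15 other glycogen enzymes the lowest p-values after Gys1 were those of the phosphorylase kinase subunits Phkg2 (−0.27, adjusted p = 0.166) and Phkb (−0.12, adjusted p = 0.256) and of the phosphoglucomutase gene Pgm2 (0.17, adjusted p = 0.343). The groups did not overlap for Phkb, lower in knockout libraries, and for Pgm2, higher in knockout libraries.

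**Figure D4:**
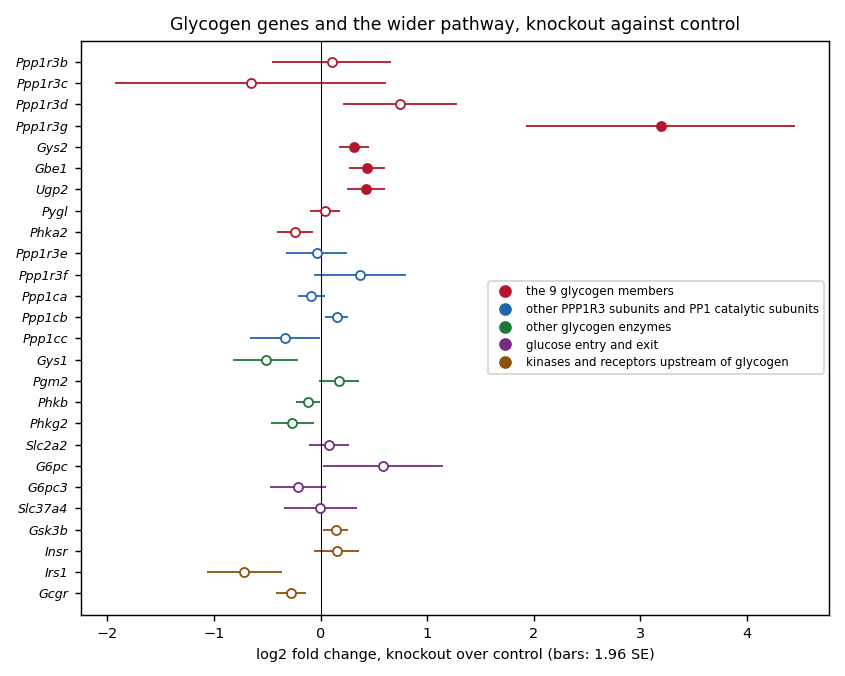
Log2 fold change of knockout over control with bars of 1.96 SE for the 9 glycogen genes (red) and the 17 other tested pathway genes that the text names (other colours by list), filled where adjusted p is under 0.05. The 4 filled points are Ppp1r3g at 3.19 and Gbe1, Ugp2 and Gys2 between 0.31 and 0.43.

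Genes of glucose entry and exit, 6 tested, had a median log2 fold change of 0.04. G6pc, which encodes the phosphatase that releases free glucose, had 1011 ± 113 CPM in knockout and 674 ± 273 CPM in control livers (log2 fold change 0.59, SE 0.29, adjusted p = 0.281). G6pc3 had −0.21 (adjusted p = 0.403) and the glucose transporter gene Slc2a2 0.08 (adjusted p = 0.667). Among 12 kinases and receptors upstream, 2 came closest to the threshold. Irs1, an insulin receptor substrate, had 33.2, 33.0, 36.8 and 26.5 CPM in knockout libraries and 57.8, 69.0, 49.0 and 37.0 CPM in control libraries, which did not overlap (log2 fold change −0.72, SE 0.18, adjusted p = 0.054). It fell with the replicate block (−0.69, adjusted p = 0.016). Gcgr, the glucagon receptor gene, had 224 ± 14.4 CPM in knockout and 272 ± 15.1 CPM in control livers, again without overlap (−0.28, SE 0.07, adjusted p = 0.0583). Without control library 3 its adjusted p was 0.0335, and the insulin receptor gene Insr also passed (0.28, adjusted p = 0.0306), while without control library 4 Irs1 passed (−0.85, adjusted p = 0.0191). Gsk3b, a kinase of glycogen synthase, had 0.14 without overlap (adjusted p = 0.215).

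Genes that respond to feeding and fasting were set beside these results. Of 10 tested, 2 rose and 0 fell, against 3.51% and 1.88% of all tested genes (1 and 0 with the replicate block, against 4.39% and 2.52%), with a median log2 fold change of 0.24. The list mixes genes of feeding and of fasting, so this median has no direction in feeding state. For 3 of the 10, Igfbp1, Cpt1a and Pnpla3, all knockout libraries lay above all control libraries, against 7.17% of all tested genes. Pnpla3 had 88.8 ± 28.4 CPM in knockout and 20.8 ± 17.5 CPM in control livers (2.09, SE 0.71, adjusted p = 0.141). Igfbp1, an insulin-repressed secreted protein, had 274, 422, 226 and 301 CPM in knockout libraries 1 to 4, and 65.1, 54.3, 117 and 52.5 CPM in control libraries (log2 fold change 2.08, SE 0.30, adjusted p = 0.0106, or 0.0544 with the block). Cpt1a, which controls entry of fatty acids into mitochondria, had 536 ± 38.7 CPM in knockout and 413 ± 29.6 CPM in control livers (0.38, adjusted p = 0.0292). Its call was lost without knockout libraries 1, 2 or 3 (0.0543, 0.076 and 0.0935), without control libraries 1, 2 or 4 (0.0776, 0.0706 and 0.0571) and under total counts alone (0.0799). Of the 5 bile duct markers 1 fell, 2 had a log2 fold change above 0 and 3 below. The one that fell was Sox9 (5.17 ± 1.98 CPM in knockout and 11.7 ± 1.68 CPM in control livers, adjusted p = 0.0242, or 0.0544, 0.0745 and 0.0612 without knockout libraries 2, 3 or 4 and 0.0637 and 0.0622 without control libraries 1 or 2), and the summed level of the 5 markers, most of it Spp1, was 30.2 to 44.7 CPM in knockout and 42.0 to 56.9 CPM in control libraries. The summed level of the 5 macrophage markers ranged from 76.7 to 213 CPM in knockout and 99.6 to 134 CPM in control libraries. The part of these markers in the results was not tested.

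Genes whose pattern over the 8 libraries was most like that of each PPP1R3 transcript were found among 11347 genes by the root mean square difference of centred log2 CPM. Their likeness follows from this choice and is no separate result. For Ppp1r3c these were Bcl6, a transcriptional repressor (0.40), and Axin2, an inhibitor of Wnt signalling (0.53). Bcl6 had 134, 29.5, 109 and 36.7 CPM in knockout libraries 1 to 4, and 114, 91.7, 190.2 and 92.9 CPM in control libraries, low in knockout libraries 2 and 4 as Ppp1r3c was. For Ppp1r3g they were the adaptor gene Shc2 and the non-coding RNA host gene Snhg11 (both 0.79, where Ppp1r3g itself deviated from its own mean by 1.74). Both were higher in every knockout library than in any control library, as were 7.17% of all tested genes. The choice by likeness to Ppp1r3g favours such separation. For Ppp1r3b they were Paxx and Cxcl11 (0.20 and 0.21), and for Ppp1r3d Elmo2 and Tlcd4 (0.16 and 0.19).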

How the data were processed

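Per the file headers, the deposited file holds raw counts for each gene symbol and a gene length in bases. Per the submitters' processing notes the build was mm10; the aligner, counter, annotation and strandedness are not given in the sources used. Column names were found in the sample descriptions. Counts were filtered with filterByExpr (14861 of 25239 genes, 99.99% of counts), TMM-scaled and tested with edgeR 4.0.16 (glmQLFit with robust estimation, glmQLFTest, 6 residual degrees of freedom, R 4.3.3), Benjamini-Hochberg adjusted at 0.05, after a check on simulated data. SE is the absolute log2 fold change over the square root of F. DESeq2 1.42.0 and limma 3.58.1 were alternatives, with other scalings and filters, halved counts, a replicate block and fits without 1 library. In a library 3 counts, the limit a count of 0 allows, equal 0.0215 to 0.0277 CPM, for counting error only. Levels per kilobase used the deposited lengths.

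Named genes are the 9 glycogen genes, Zfp36l1, genes of the lists past the threshold (up to 4 of lowest p per pathway list, up to 6 past it per other list) and the 2 most similar genes per PPP1R3 transcript; others were named after their values were seen. Some genes of the lists are counted but not reported here by name. Members and lists were chosen with earlier results of these data known. Same-numbered libraries correlated at 0.17, 0.39, 0.31 and 0.40 after subtraction of group means. The best control library of another number reached 0.13, −0.078, 0.10 and 0.039, so number 1 was hardly set apart. The labels state no pairing, and a pairing was not tested.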

Additional observations from a re-analysis of the deposited data

Results flagged for a closer look

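In 156 groups of 4 libraries, 1 library stood apart from the other 3 in 14 cases (8.97%), where chance alone flags about 1 in 20. Among the 9 glycogen genes this held for Gbe1, with 249 CPM in knockout library 2 and 231 to 234 CPM in the other knockout libraries. Knockout library 2 was also highest for Ppp1cc (2.29 CPM, others 1.52 to 1.64) and Slc37a4 (143 CPM, others 124 to 125). Knockout library 3 was lowest for Tat (1911 CPM, others 2213 to 2256), and knockout library 4 was highest for Dbp (6.92 CPM, others 0.314 to 1.39) and lowest for Tlcd4 (549.7 CPM, others 593 to 600.4).

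Control library 4 was highest for the clock genes Dbp (26.3 CPM, others 0.308 to 1.21), Per3 (22.4 CPM, others 2.31 to 4.37) and Ciart (1.66 CPM, others 0.279 to 0.364), and for Shc2 (0.509 CPM, others 0.208 to 0.240) and Snhg11 (28.3 CPM, others 12.5 to 15.0). Control library 3 was highest for Insr (275 CPM, others 198 to 207) and Cpt1a (457 CPM, others 397.6 to 398.1), and control library 2 for Angptl4 (113 CPM, others 39.2 to 49.9).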

How the results depend on the processing

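Zfp36l1 kept its direction and call in all 16 alternatives. The number of changed genes, 801 in the reported fit, was 1730 under total counts alone, 1663 in DESeq2 and 1450 in limma, and 211 to 967 when 1 library was left out (303 and 396 without control libraries 1 and 2, and 256, 394 and 211 without knockout libraries 1, 2 and 3). With total counts alone the median over all tested genes moved by −0.113 on the log2 scale, and that scaling made 22.7% of calls higher, against 65.0% under TMM scaling. The higher glycogen genes, 4 as reported, were 2 and the lower ones 1 under total counts alone, and 0 to 3 were higher with 1 library left out. Of the wider list, 1 was higher in DESeq2, and 0 to 1 with 1 library left out. Lower were 5 under total counts alone, 3 in DESeq2, 2 in limma, 1 with the stricter filter, 1 with the replicate block and 0 to 1 with 1 library left out. The replicate block ended the call of Ppp1r3g (adjusted p = 0.114) and changed no other call among the 9 genes. The sign turned for Ppp1r3b under total counts alone (−0.0102), without control library 3 (−0.0526), without knockout library 1 (−0.0794) and without knockout library 3 (−0.00639), within −0.0794 to 0.263 over fits without 1 library, and for Pygl under total counts alone (−0.0696). The cause of these changes was not tested. Ppp1r3d did not pass the stricter filter, so that setting gave no value for it. Depth limits Ppp1r3d and Ppp1r3a.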
